A study of Mus musculus with 6 samples.

Results

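RNA of the left cochlea was read for genes of the ubiquitin system in mice exposed to sound trauma, with and without delivery of mesenchymal stromal cells (MSCs). The members are the genes that the authors list as down-regulated or up-regulated after MSC delivery and whose symbol belongs to a family of ubiquitin ligases, ligase receptors, conjugating enzymes, deubiquitinases or proteasome subunits. This rule found 73 of the 3716 genes named in those lists, 54 in the down-regulated and 19 in the up-regulated list, out of 41096 genes counted. The members were thus selected on the authors' fold change and false discovery rate between the groups compared here, so the direction of change follows from the choice and is given here as a description. Patterns for cullins, HECW ligases and DCAF receptors were also searched, and no listed symbol matched them.

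Sound trauma animals (specimens 6, 8 and 10, n = 3) were exposed for 4 h to narrow band noise at 16 kHz, which the study's methods describe as a pure tone. Per the methods they received artificial perilymph 48 h after the exposure, while the sample labels describe them as exposed to noise only. MSC treated animals (specimens 13, 18 and 20, n = 3) had the same exposure. After 48 h they received an injection, through the posterior semicircular canal, of human MSCs grown from umbilical cord (Wharton's jelly). All animals are labelled as strain C56Bl/6 and are described in the methods as female C57BL/6 mice aged 4 weeks, and the cells came from 3 cords. RNA was taken 2 days after treatment per the labels and 72 h after it per the methods, which name 5 animals in each group. No unexposed cochlea was analysed here, and both groups had the same noise exposure.

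Proteins are marked for degradation or altered signalling when a chain of enzymes, E1, E2 and E3, attaches ubiquitin to them. The E3 ligase chooses the substrate. RING and TRIM ligases bring the E2 to it, HECT ligases pass ubiquitin on themselves, and F-box, BTB-kelch and ASB proteins are exchangeable receptors of cullin ligases. Deubiquitinases remove the mark and the proteasome degrades marked proteins. Many E3 ligases are used widely, while some are known for 1 tissue, such as those that turn over the sarcomere in striated muscle, those that shape axons and synapses, and those that act in antiviral signalling. The 73 members comprised 17 TRIM proteins, 13 RNF or MARCH ligases, 11 F-box proteins, 9 BTB-kelch proteins, 4 ASB proteins, 4 HECT ligases, 5 E2 enzymes, 7 deubiquitinases, 2 proteasome subunits and Usp6nl, a Rab GTPase-activating protein that only shares the symbol. By lists of genes known from muscle, nervous or immune tissue, 8 were placed in a muscle group, 23 in a neural group and 9 in an immune group, and 33 that are on none of these lists are called ungrouped. The grouping is coarse, since some listed genes are used in many tissues and some ungrouped genes are known from 1 tissue.

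Promoters of 3 muscle members and 1 immune member are shown because most members of each group had a like order over the libraries and these promoters held a motif that was searched. RefSeq promoters (250 bases before to 50 bases after the annotated start, GRCm38.p6) were matched by symbol for 60 of the 73 members, with 8 of 8 in the muscle group. Capitals mark the letters of a motif found on either strand, an E-box (CAGCTG) or the MEF2 site, both of which myogenic factors are known to bind, or the core of the interferon-stimulated response element (GAAA, then any 2 bases, then GAAA). The first is the promoter of Asb18 (chr1:90014617-90014916, minus strand), the next those of Kbtbd12 (chr6:88627380-88627679, minus strand) and Trim54 (chr5:31116362-31116661, plus strand), and the last is that of the antiviral ligase Trim26 (chr17:36836896-36837195, plus strand), all 5′ to 3′ in the direction of the gene.
Asb18: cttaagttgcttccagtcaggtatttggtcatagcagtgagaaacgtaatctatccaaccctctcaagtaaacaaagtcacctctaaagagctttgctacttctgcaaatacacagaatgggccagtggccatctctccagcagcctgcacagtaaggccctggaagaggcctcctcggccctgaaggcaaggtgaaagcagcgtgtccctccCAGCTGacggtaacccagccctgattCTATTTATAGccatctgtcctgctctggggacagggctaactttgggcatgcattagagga
Kbtbd12: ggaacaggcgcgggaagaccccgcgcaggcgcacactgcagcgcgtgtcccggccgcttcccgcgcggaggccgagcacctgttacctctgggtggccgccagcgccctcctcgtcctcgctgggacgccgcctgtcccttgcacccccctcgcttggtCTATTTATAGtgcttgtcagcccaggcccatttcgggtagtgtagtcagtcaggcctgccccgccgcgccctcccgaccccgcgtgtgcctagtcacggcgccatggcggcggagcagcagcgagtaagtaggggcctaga
Trim54: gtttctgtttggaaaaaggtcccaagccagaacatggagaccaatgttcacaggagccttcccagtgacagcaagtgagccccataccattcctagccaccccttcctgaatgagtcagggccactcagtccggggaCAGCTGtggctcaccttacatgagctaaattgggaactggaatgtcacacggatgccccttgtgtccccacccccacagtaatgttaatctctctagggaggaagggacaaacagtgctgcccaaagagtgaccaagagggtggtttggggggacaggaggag
Trim26: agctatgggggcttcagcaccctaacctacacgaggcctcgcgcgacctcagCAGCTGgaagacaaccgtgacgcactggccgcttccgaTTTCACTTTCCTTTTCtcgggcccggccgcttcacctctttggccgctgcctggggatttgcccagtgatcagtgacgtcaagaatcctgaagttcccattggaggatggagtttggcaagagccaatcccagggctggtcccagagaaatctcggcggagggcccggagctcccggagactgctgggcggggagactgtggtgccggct
Asb18 held an E-box from -37 to -32 and a MEF2 site from -11 to -2 relative to the annotated start, Kbtbd12 a MEF2 site from -91 to -82, and Trim54 an E-box from -113 to -108. Trim26 held 2 overlapping cores of the interferon element between -160 and -145, on the minus strand relative to the gene, and an E-box further upstream. Some genes have several promoters, and shares are per promoter. MEF2 sites were found in 2 of 9 muscle, 0 of 25 neural, 0 of 8 immune and 2 of 34 ungrouped promoters, and in 3.19% of all 32851 promoters. The E-box was found in 4 of 9 muscle, 7 of 25 neural, 3 of 8 immune and 7 of 34 ungrouped promoters, and in 16.3% of all promoters. The interferon core was found in 0, 1, 1 and 3 of them in the same order, and in 3.44% of all promoters. These are matches of letters in a short window and say nothing of binding.

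Reads on genes were between 9170390 and 11030863 per library. Values are scaled counts, the reads of a gene multiplied by the factor that the authors applied to each library, and 3 reads or fewer were treated as at the detection floor, which covers counting error only. Of the 73 members, 72 passed the filter on low counts, and Rnf165, a neural RING ligase, did not. In limma, 0 of the 72 had an adjusted p under 0.05, and 0% of all 15970 genes tested were called. At an unadjusted p under 0.05 in limma, 2 members were lower, Fbxo36 and Usp36, and 0.67% of all genes were lower and 1.68% higher (107 and 269 genes, or 61 and 295 with scaling by total count). The edgeR quasi-likelihood test gave 6, DESeq2 13 and limma-voom 2 members at that limit, all lower, where 1.67%, 3.44% and 0.614% of all genes were lower, and each gave 0 at an adjusted p under 0.05. Without sound trauma specimen 10, limma gave 35, of which 25 were lower (16 neural, 8 ungrouped, 1 muscle) and 10 higher (7 immune, 3 ungrouped), and again 0 after adjustment, where 7.03% of all genes were lower and 8.56% higher at that limit. Fold changes below are log2 differences of MSC treated minus sound trauma animals on the log2(scaled count + 1) scale with the standard error (SE) of the fit, and are not tests of the members.

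The libraries differed in other genes along the same lines as the members. Gene symbols were paired with identifiers only in the authors' lists, so that markers too could be read only where the authors list them as changed, which selects them on the same contrast. Skeletal muscle markers, of which 18 of 21 are listed, summed to 1081760, 44309.5 and 265486 scaled counts in sound trauma specimens 6, 8 and 10 and to 620643, 99592 and 114737 in MSC treated specimens 13, 18 and 20. Brain neuron markers, listed for 16 of 21, summed to 15652, 47246 and 7458 against 8552, 11334 and 10675 in the same order, and 2 of the 16 were within the floor in specimen 10 and 1 each in specimens 13 and 20. Cochlear markers, listed for 6 of 18, summed to 1939, 2065 and 4856 against 3366, 4202 and 3526, and were at their lowest in specimens 6 and 8 for 6 of 6 genes. No listed marker was at 0 in any library. Specimens 6 and 13 thus stood apart in muscle markers, specimen 8 in neuron markers and specimens 6 and 8 in cochlear markers. What part these differences had in the values of the members was not tested, and in bulk RNA fewer cells of a type and less RNA per cell cannot be told apart.

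**Figure D1:**
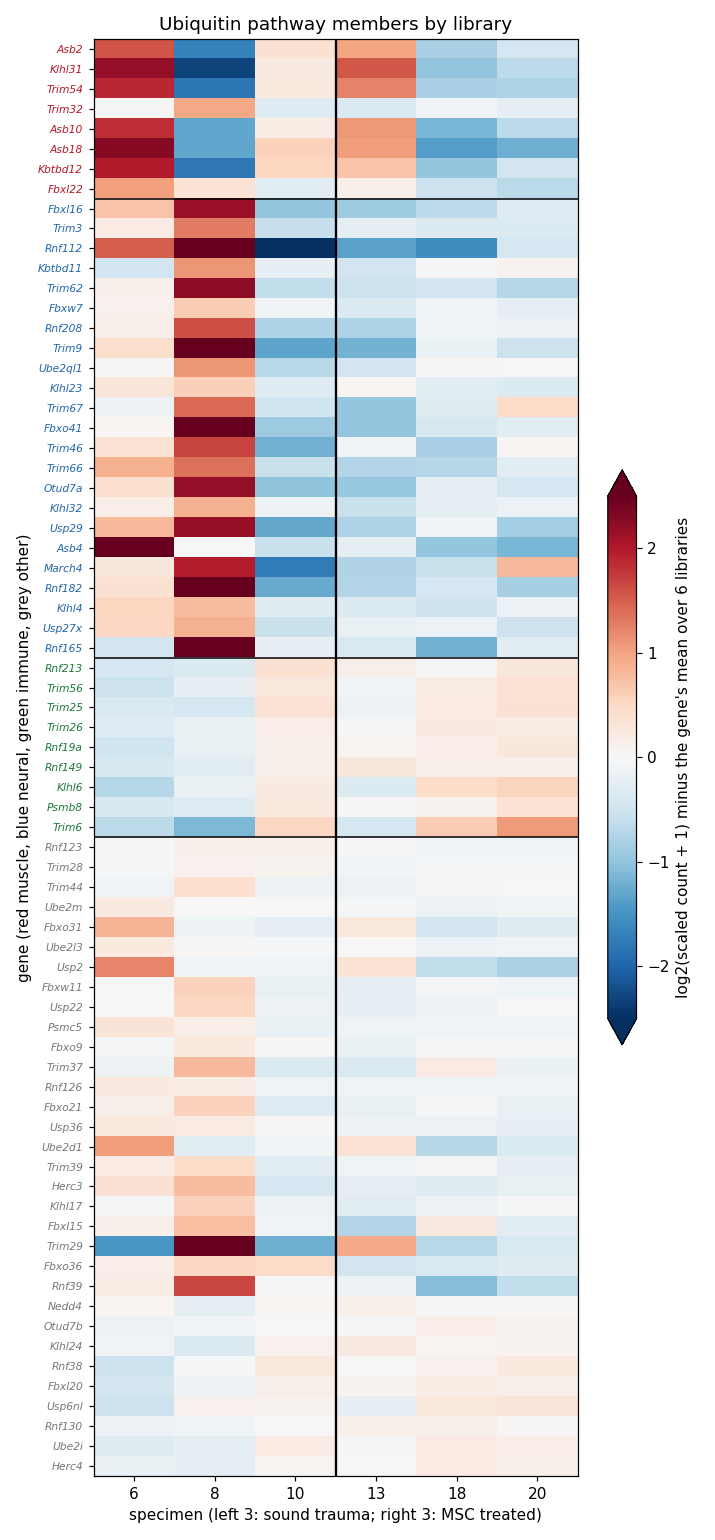
Each row is 1 gene, for 72 of the 73 members, and each column 1 library, and the colour is log2(scaled count + 1) minus the gene's mean over the 6 libraries, from blue (lower) to red (higher). Specimen 6 was highest for 7 of 8 muscle genes, specimen 8 was highest for 22 of 23 neural genes, and specimens 6 and 8 were lowest for 8 of 9 immune genes.

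All 8 ligases of striated muscle varied more within the groups than between them, and the median member of each other set did too. Some members of the other sets varied more between the groups, such as Fbxo36 and Usp36 (91.0% and 85.0% of the sum of squares of log2 values). The median share of the sum of squares of log2 values that lay between the groups was 4.10% for muscle, 23.5% for neural, 28.9% for immune and 33.0% for ungrouped members, and 13.2% over all genes tested. In 7 of the 8, specimen 6 had the highest value (21.1% of all genes tested), in 5 specimen 8 had the lowest (21.2%), and in 6 of the 8 the order began with sound trauma specimen 6, MSC treated specimen 13 and sound trauma specimen 10, an order that 6.05% of all genes tested and 18 of 18 listed muscle markers had. All 8 are in the down-regulated list, which favours a high sound trauma library, and of the 23 ungrouped members in that list 8 were highest in specimen 6 and 1 had this order. The median ratio of the highest to the lowest value was 11.1 within sound trauma and 3.83 within MSC treated animals, where all genes tested had medians of 1.55 and 1.29.

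Scaled counts of Klhl31, a BTB-kelch protein of skeletal muscle, were 2194, 94.6 and 555 after sound trauma alone (specimens 6, 8 and 10) and 1403, 241 and 303 after MSC delivery (specimens 13, 18 and 20). Specimens 6 and 13, 1 of each group, were the highest, and specimen 8 lay 23.2-fold below specimen 6. The log2 fold change was -0.06 (SE 1.21), and it ranged from -1.24 without specimen 8 to 1.02 without specimen 6. It was 0.01 when libraries were scaled by total count, -0.55 with edgeR and -0.57 with DESeq2. Trim54, the sarcomere-associated RING ligase MuRF3, had scaled counts of 1792, 138 and 570.0 after sound trauma alone (specimens 6, 8 and 10) and 1145, 275 and 282 after MSC delivery (specimens 13, 18 and 20). Again specimen 13 was above sound trauma specimens 8 and 10, and its value was 4.17 times that of specimen 18. Its log2 fold change was -0.22 (SE 1.001).

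Of the 4 ASB receptors, 3 belonged to this group. For Asb2, which directs filamins to degradation in muscle, the scaled counts were 1923, 199.8 and 839 after sound trauma alone (specimens 6, 8 and 10) and 1285, 368 and 474 after MSC delivery (specimens 13, 18 and 20). Asb10 had 345, 38.2 and 109 beside 204, 42.9 and 60.2 scaled counts in the same order of specimens, and Asb18 had 217, 17.2 and 66.1 beside 92.5, 16.3 and 18.4. All of these genes were highest in specimen 6 and next in specimen 13, and the groups overlapped throughout. Log2 fold changes were -0.18, -0.48 and -1.03 for Asb2, Asb10 and Asb18 (SE 0.87, 0.90 and 1.04). Kbtbd12, a kelch protein of skeletal muscle, had 116, 7.65 and 41.99 beside 47.8, 14.3 and 20.4 scaled counts, giving a log2 fold change of -0.48 (SE 0.97).

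Fbxl22 and Trim32 departed from this order. Fbxl22, an F-box protein of the sarcomere, had scaled counts of 68.4, 42.1 and 26.8 after sound trauma alone (specimens 6, 8 and 10) and 36.4, 22.5 and 20.4 after MSC delivery (specimens 13, 18 and 20). Specimen 6 was the highest, but specimen 8 was next and not the lowest, and the log2 fold change was -0.72 (SE 0.42). Trim32, a ligase that is mutated in a limb-girdle muscular dystrophy and is also made in many other tissues, had 429, 813 and 336 beside 323, 397 and 355 scaled counts, again by specimen, with specimen 8 the highest and a log2 fold change of -0.45 (SE 0.32). The median log2 fold change of the 8 genes was -0.47, where all genes tested had a median of 0.00. It was -0.48 without Trim32, which was left out after its values were seen. Leaving out specimen 6 turned the median to 0.35, with 5 of 8 genes then higher in MSC treated animals, and without specimen 8 it was -1.21. Without MSC treated specimen 18 it was -0.08 and without specimen 13 it was -0.93.

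**Figure D2:**
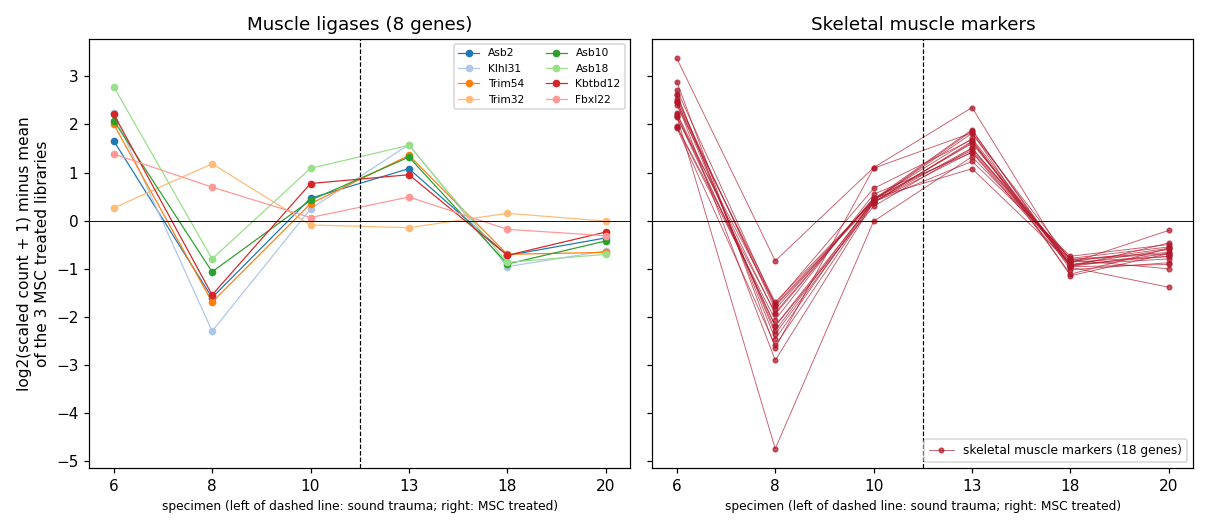
The left panel shows the 8 muscle ligases and the right panel the 18 listed skeletal muscle markers, each point 1 library, as log2(scaled count + 1) minus the mean of the 3 MSC treated libraries, with lines joining the values of a gene. Specimen 6 was highest for 7 of 8 ligases and 18 of 18 markers, specimen 13 was next for 6 of 8 ligases and 18 of 18 markers, and 5 of 8 ligases and 17 of 18 markers were lowest in specimen 8.

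Neural ligases were highest in 1 sound trauma animal. In 22 of the 23 genes specimen 8 had the highest value, which held for 28.2% of all genes tested and for 15 of 16 listed neuron markers, and in 18 of the 23 specimen 6 was next (10.4% of all genes tested). All 23 are in the down-regulated list, and of the 23 ungrouped members in that list 14 were highest in specimen 8, 5 of them with specimen 6 next. Sound trauma specimen 10, by contrast, lay below the mean of the MSC treated libraries for 17 of the 23, and was the lowest of the 6 libraries for 11 (14% of all genes tested). Set against the MSC treated mean, the median log2 difference was 0.63 in specimen 6, 1.96 in specimen 8 and -0.28 in specimen 10.

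Rnf112, a RING finger GTPase of neurons, showed the widest range, with scaled counts of 401, 3390.2 and 19.7 after sound trauma alone (specimens 6, 8 and 10) and 54.0, 45.96 and 102 after MSC delivery (specimens 13, 18 and 20). Specimen 8 was 172 times as high as specimen 10 of the same group, and specimen 10 was the lowest of all. Its log2 fold change was -2.24 (SE 1.71), and it was -0.50 without specimen 8, -4.18 without specimen 10 and -4.25 with both edgeR and DESeq2. A pair of related TRIM ligases act in axon guidance by netrin. Scaled counts of Trim9 were 234, 1198 and 67.9 after sound trauma alone (specimens 6, 8 and 10) and 74.8, 152 and 117 after MSC delivery (specimens 13, 18 and 20), and its log2 fold change was -1.27 (SE 0.98). Trim67, its closest relative, had 141, 412 and 109 beside 77.9, 125 and 215 scaled counts, giving a log2 fold change of -0.53 (SE 0.58). In Trim67, MSC treated specimen 20 lay above sound trauma specimens 6 and 10, so that the groups overlapped. Without specimen 8 the values were -0.19 for Trim9 and 0.04 for Trim67, and without specimen 10 they were -2.26 and -0.91.

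Among the F-box proteins, Fbxl16 had scaled counts of 900.5, 2426 and 283 after sound trauma alone (specimens 6, 8 and 10) and 296, 348 and 439 after MSC delivery (specimens 13, 18 and 20). Fbxo41, an F-box protein known mainly from neurons, had 104, 574 and 53.6 beside 50.9, 76.6 and 83.5 in the same order. Both had specimen 8 highest, specimen 6 next and specimen 10 within or below the range of the MSC treated libraries. Their log2 fold changes were -1.26 and -1.09 (SE 0.72 and 0.83). They were -0.50 and -0.12 without specimen 8, and -2.05 and -1.82 without specimen 10. Fbxw7, the receptor that marks Notch, Jun and cyclin E for degradation and is used in many tissues, had 445, 643 and 395 beside 323, 390.1 and 348 scaled counts, and here every sound trauma library exceeded every MSC treated library. Its log2 fold change was -0.45 (SE 0.21).

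For Trim3, a brain TRIM ligase of the postsynapse, the scaled counts were 804, 1695 and 465 after sound trauma alone (specimens 6, 8 and 10) and 596, 548 and 548 after MSC delivery (specimens 13, 18 and 20). Trim62 had 342, 1483 and 205 beside 215, 225 and 192 and Rnf208 had 366, 1012 and 195 beside 193, 317 and 299 in the same order. In each gene specimen 8 stood above the other 5 libraries, and specimen 10 was close to the MSC treated animals. Their log2 fold changes were -0.61, -1.16 and -0.66 (SE 0.44, 0.68 and 0.58). They were -0.12, -0.33 and -0.02 without specimen 8, and -1.05, -1.76 and -1.20 without specimen 10. The BTB-kelch protein Kbtbd11 had 419.5, 1256 and 505 beside 419.7, 573 and 624 scaled counts, with specimen 6 the lowest of the 6. Klhl23, a further adaptor of this kind, had 309, 382 and 201 beside 259.7, 206 and 197, with specimens 8 and 6 the highest and specimen 10 among the MSC treated values. The E2-like gene Ube2ql1 had 250.3, 529 and 153 beside 178, 250.2 and 248, and specimens 18 and 20 lay just under specimen 6. Log2 fold changes of Kbtbd11, Klhl23 and Ube2ql1 were -0.27, -0.39 and -0.29 (SE 0.42, 0.26 and 0.44), and without specimen 8 they were 0.21, -0.18 and 0.19.

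Of the remaining 11 neural genes, 10 were highest in specimen 8 with specimen 10 or an MSC treated animal lowest. Of these, 9 were tested, and their log2 fold changes were between -1.31 and -0.55 apart from March4. March4, a membrane-bound RING-CH ligase, had 39.4, 128 and 8.93 beside 18.7, 21.4 and 57.3 scaled counts, giving a log2 fold change of -0.34 (SE 0.95). Asb4 was the exception to the pattern, with scaled counts of 202, 26.8 and 17.9 after sound trauma alone (specimens 6, 8 and 10) and 22.9, 13.3 and 11.6 after MSC delivery (specimens 13, 18 and 20). It was highest in specimen 6, at 7.53 times the value in specimen 8, and was named after its values were seen. Its log2 fold change was -1.54 (SE 0.90), -0.49 without specimen 6 and -2.40 with DESeq2. Rnf165 had 5.79, 53.5 and 7.15 beside 6.23, 3.06 and 6.79 scaled counts, with specimen 18 at 3 reads, within the floor, and did not enter the test. The median log2 fold change of the 22 neural genes tested was -0.67, and -0.97 with both edgeR and DESeq2. Without specimen 8 it was -0.22, with 17 lower and 5 higher (Kbtbd11, Ube2ql1, Trim67, Trim46 and March4), and without specimen 10 it was -1.29, with 22 lower. With specimen 10 as the only sound trauma library, the median difference of MSC treated animals from it was 0.28, so that its sign was opposite to that of the 3 animals together.

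**Figure D3:**
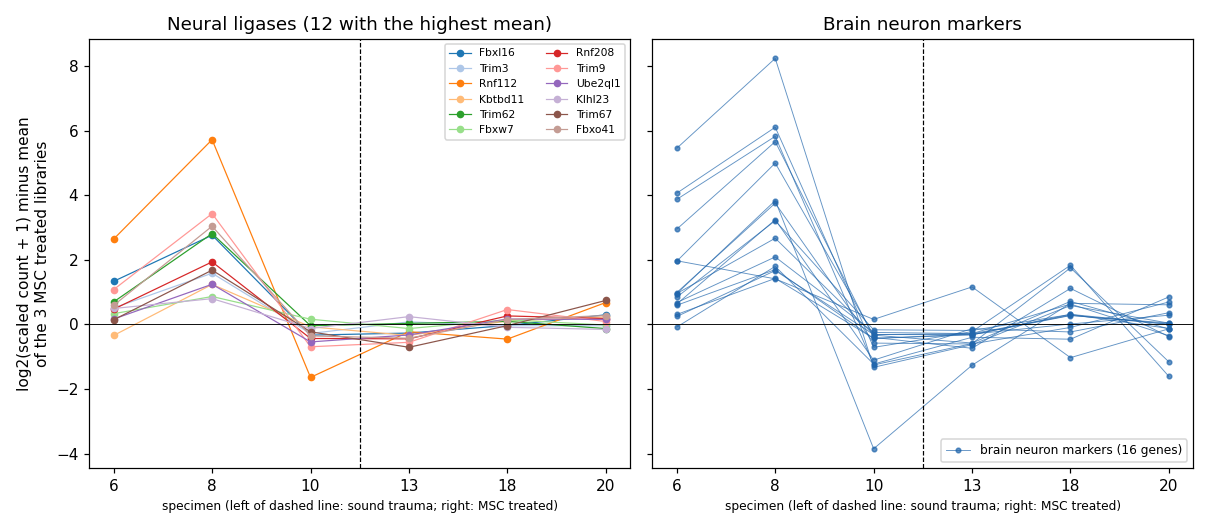
The left panel shows the 12 neural members with the highest mean scaled count and the right panel the 16 listed brain neuron markers, as log2(scaled count + 1) minus the mean of the 3 MSC treated libraries, with lines joining the values of a gene. Specimen 8 was the highest library for 12 of 12 ligases and 15 of 16 markers, and specimen 10 lay near or below the MSC treated libraries.

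Immune ligases differed less, and 8 of 9 were lowest in sound trauma specimens 6 and 8. All 9 are in the up-regulated list. This order held for 17.4% of all genes tested, and for 7 of the 10 ungrouped members in the up-regulated list, so it was not limited to the immune group. It also held for 6 of 6 listed cochlear markers and for 3 of 3 listed leukocyte markers (Adgre1, Cd68 and H2-Ab1, of 16 on the list), and for 2 of 4 listed interferon-induced genes. Sound trauma specimen 10 lay above the MSC treated mean for 7 of the 9. Median differences from the MSC treated mean were -0.59, -0.48 and 0.09 on the log2 scale in specimens 6, 8 and 10.

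Rnf213, a giant AAA and RING protein linked to moyamoya disease, had scaled counts of 985, 1033 and 1726 after sound trauma alone (specimens 6, 8 and 10) and 1466, 1279.7 and 1618 after MSC delivery (specimens 13, 18 and 20). The highest value was that of sound trauma specimen 10, and the log2 fold change was 0.26 (SE 0.24). Trim25, which activates the RNA sensor RIG-I, had 570.2, 545 and 948 beside 662, 847 and 964 scaled counts in the same order, and Trim56, which acts in antiviral signalling through TLR3 and STING, had 781, 984 and 1364 beside 1088, 1282 and 1453. In both, specimen 10 was above specimens 13 and 18 and below specimen 20. Trim26, whose promoter held the interferon core, had 555, 610.0 and 778 beside 673, 815 and 792 scaled counts. Log2 fold changes of Trim25, Trim56 and Trim26 were 0.29, 0.32 and 0.24 (SE 0.26, 0.23 and 0.17).

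Psmb8, a catalytic subunit of the immunoproteasome that is induced by interferon, had scaled counts of 289.7, 303 and 452 after sound trauma alone (specimens 6, 8 and 10) and 391, 405 and 486 after MSC delivery (specimens 13, 18 and 20). Specimen 10 lay between MSC treated specimens 18 and 20, and the log2 fold change was 0.32 (SE 0.21). Klhl6, a BTB-kelch adaptor of B lymphocytes, had 239.9, 342 and 461 beside 309, 540.3 and 574 scaled counts, and in this gene specimen 13 of the MSC treated group lay below specimen 8. Trim6 was the least counted of the group, with 6.95, 4.78 and 17.0 beside 8.31, 18.4 and 25.2, and had the largest log2 fold change, 0.84 (SE 0.60). Rnf149, a membrane RING ligase, had 369.7, 401 and 536 beside 596, 544 and 533, and Rnf19a, a RING-between-RING ligase, had 410.3, 512 and 646 beside 609.8, 654 and 705. Specimen 10 reached into the MSC treated range in each of these genes. Log2 fold changes of Klhl6, Rnf149 and Rnf19a were 0.44, 0.37 and 0.35 (SE 0.33, 0.17 and 0.19).

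Over the 9 genes the median log2 fold change was 0.32, and all 9 were higher in MSC treated animals whichever library was left out, which the choice of members largely fixes. The median was 0.19 without specimen 6, 0.29 without specimen 8 and 0.53 without specimen 10. Of the interferon-induced genes, 4 of 16 are listed, 3 as up-regulated and 1 as down-regulated, with summed scaled counts of 1408, 1904 and 2267 against 1930, 1875 and 2331 in the same order.

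**Figure D4:**
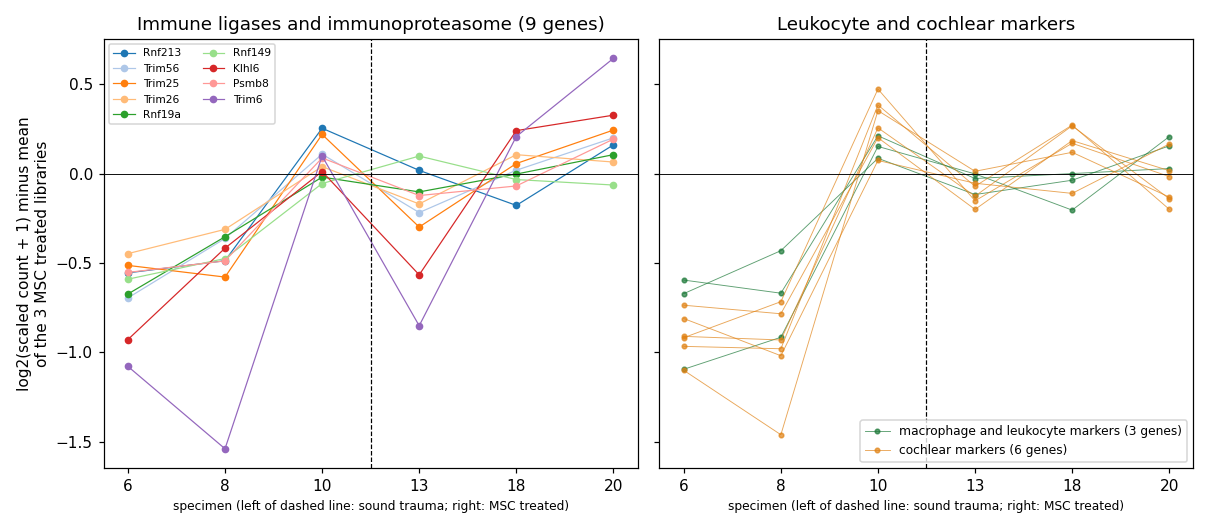
The left panel shows the 9 immune members and the right panel 3 leukocyte and 6 cochlear markers, as log2(scaled count + 1) minus the mean of the 3 MSC treated libraries, with lines joining the values of a gene. Specimens 6 and 8 were the 2 lowest libraries for 8 of 9 members and for all 9 of these markers, while specimen 10 lay among or above the MSC treated libraries.

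For the 33 ungrouped members, the median log2 fold change was -0.25 over the 23 in the down-regulated list and 0.23 over the 10 in the up-regulated list. Their log2 fold changes were between -1.21 and 0.28, and the median ratio of the highest to the lowest value was 1.47 within sound trauma and 1.13 within MSC treated animals. Nedd4, a HECT ligase of membrane proteins, had scaled counts of 7116, 5934 and 7139 after sound trauma alone (specimens 6, 8 and 10) and 7478, 6755 and 7041 after MSC delivery (specimens 13, 18 and 20), for a log2 fold change of 0.08 (SE 0.16). Sound trauma specimen 10 lay above MSC treated specimens 18 and 20, and without specimen 8 the log2 fold change was -0.01. Rnf123, the ligase KPC1 that acts on the cell cycle inhibitor p27, had 2434, 2703 and 2716 beside 2414, 2301 and 2327, and the 3 MSC treated values were the lowest, with a log2 fold change of -0.16 (SE 0.12).

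Enzymes that are not ligases were read next. Ube2m, the E2 that activates cullin ligases with NEDD8, had scaled counts of 1407, 1205 and 1192 after sound trauma alone (specimens 6, 8 and 10) and 1176, 1104 and 1143 after MSC delivery (specimens 13, 18 and 20). Ube2l3, an E2 of HECT and RING-between-RING ligases, had 1412, 1211 and 1146 beside 1184, 1064 and 1122 in the same order. Specimen 6 was highest in both, and the groups did not overlap for Ube2m. Log2 fold changes were -0.15 (SE 0.12) and -0.16 (SE 0.13). Otud7b, a deubiquitinase also called Cezanne, had 994, 1046 and 1094 beside 1071, 1243 and 1178 scaled counts, with MSC treated specimens 18 and 20 the highest and specimen 10 above specimen 13. Psmc5, an ATPase of the proteasome cap and the only constitutive proteasome subunit listed, had 1164, 1049.8 and 839 beside 865, 875 and 868, with specimens 6 and 8 the highest. It falls outside the rule for named genes and was added after its values were seen, and the log2 fold changes of Otud7b and Psmc5 were 0.15 and -0.21 (SE 0.11 and 0.15).

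Of the other genes in this group, 3 had specimens 6 and 13 highest, as most muscle members did. Specimen 10 was next only in Ube2d1, and specimen 8 was next in Usp2 and Fbxo31. The deubiquitinase Usp2, known from muscle and from the circadian clock, had scaled counts of 2466, 999 and 992 after sound trauma alone (specimens 6, 8 and 10) and 1346, 690.4 and 609 after MSC delivery (specimens 13, 18 and 20). Fbxo31, the F-box receptor of cyclin D1, had 2071, 1040.2 and 973 beside 1378, 836 and 925, and the ubiquitin E2 Ube2d1, which was named after its values were seen, had 1082, 429 and 497 beside 674, 321 and 415. MSC treated specimen 13 exceeded sound trauma specimens 8 and 10 in all of them. Log2 fold changes of Usp2, Fbxo31 and Ube2d1 were -0.70, -0.32 and -0.45 (SE 0.45, 0.34 and 0.42), and without specimen 6 they were -0.27, 0.02 and -0.04. Trim28, the corepressor KAP1, had 1698, 1903 and 1886 beside 1675, 1725 and 1729 scaled counts, Trim44, a TRIM protein without a RING, had 1510.1, 2149 and 1458 beside 1439, 1538 and 1611, and Fbxw11, a receptor of beta-catenin, had 985, 1478 and 874 beside 849.8, 964 and 924, each with specimen 8 highest. Their log2 fold changes were -0.10, -0.14 and -0.25, and that of Trim44 was 0.04 without specimen 8. The keratin-regulating adaptor Klhl24 had 1019, 833 and 1152 beside 1253, 1111 and 1139.6 scaled counts, giving a log2 fold change of 0.23 (SE 0.15), with specimens 8 and 6 the lowest.

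The groups did not overlap for 9 of the 73 members, 7 with lower values in MSC treated animals (Fbxw7, Klhl32, Rnf123, Ube2m, Usp36, Fbxo36 and Rnf39) and 2 with higher values, of which Rnf130 is given here. Over all genes tested, 2.92% were separated with lower and 4.25% with higher values in MSC treated animals, and since the members were selected on the same contrast, nothing is read from the difference. Fbxo36 had 39.4, 50.7 and 49.1 beside 24.9, 26.6 and 28.2 scaled counts and Usp36, a nucleolar deubiquitinase, had 703, 681 and 606 beside 538, 532 and 514 in the same order. Log2 fold changes of Fbxo36 and Usp36 were -0.78 (SE 0.24) and -0.33 (SE 0.11). Klhl32 had 59.1, 98.5 and 48.2 beside 35.3, 44.9 and 47.6, Rnf39 had 20.9, 60.2 and 17.9 beside 16.6, 8.17 and 11.6 and Rnf130 had 626, 639.6 and 687 beside 755, 759 and 704 scaled counts. Some separations were narrow. Klhl32 had 54 reads in specimen 10 and 49 in specimen 20, and Rnf39 had 20 in specimen 10 and 16 in specimen 13. Overlap was read on the authors' scaling only, so the count of separated members may differ under another scaling. None of the muscle or immune members separated the groups.

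**Figure D5:**
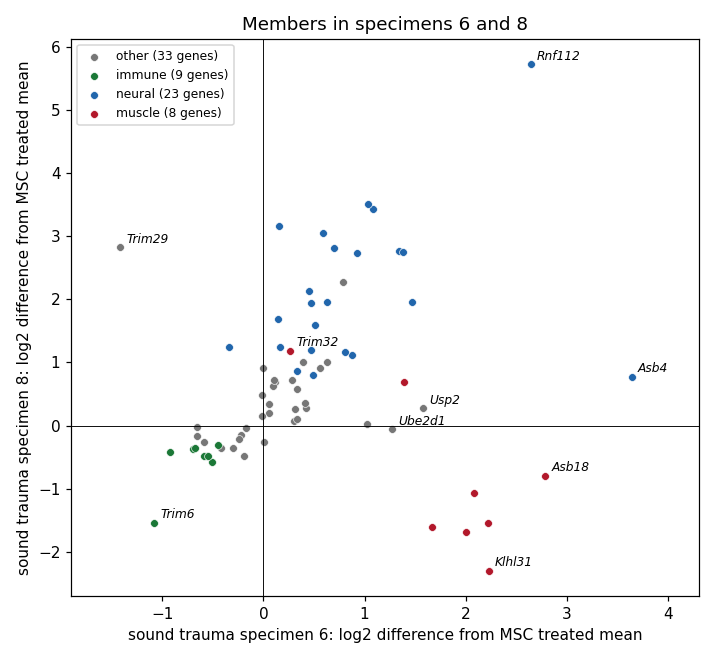
Each point is 1 member, with the log2 difference from the MSC treated mean in sound trauma specimen 6 on the horizontal axis and in specimen 8 on the vertical axis, on the log2(scaled count + 1) scale. Muscle members lie to the right with 6 of 8 below zero on the vertical axis, all 23 neural members lie above zero on that axis, and immune members lie at the lower left. The genes labelled by name were picked after their values were seen.

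Genes of the ubiquitin system outside these families were read from a separate list of 140, of which 27 are listed, 17 in the down-regulated and 10 in the up-regulated list. They were selected by the same lists as the members, so their counts are descriptions too. The groups did not overlap for 1 lower and 4 higher genes, beside the 2.92% and 4.25% over all genes tested, and limma gave 1 an unadjusted p under 0.05, Psmg4, a proteasome assembly chaperone named after its values were seen, with 49.8, 50.7 and 51.8 beside 75.8, 75.6 and 71.8 scaled counts, giving a log2 fold change of 0.54 (SE 0.19). The median log2 fold change of the 27 was -0.19, with a range from -1.42 to 0.55. Specimen 8 was highest for 13 of the 27 and specimen 6 for 3. By the rule, the 8 with the highest mean scaled count are named. Spop, a CUL3 receptor, had scaled counts of 2130.1, 1989.6 and 1766 after sound trauma alone (specimens 6, 8 and 10) and 1892, 1759.7 and 1648 after MSC delivery (specimens 13, 18 and 20). Pja2, a RING ligase of the protein kinase A pathway, had 1757, 2007 and 1436 beside 1480.5, 1505 and 1532, and Mycbp2, a giant ligase of axons, had 1296, 2029.7 and 1404 beside 1301, 1428 and 1488. Specimen 6 or 8 was highest in these genes, and their log2 fold changes were -0.15, -0.19 and -0.14 (SE 0.13, 0.15 and 0.19). The shuttle proteins Ubqln1 and Ubqln2 had log2 fold changes of -0.13 and -0.30, Dtx3 had -0.21, and Syvn1, the ligase of endoplasmic reticulum quality control, had -0.19. Uchl1, a deubiquitinase abundant in neurons, is in the up-regulated list and had 1289, 1646 and 727 beside 1005, 1369.6 and 2368 scaled counts. MSC treated specimen 20 was the highest and sound trauma specimen 10 the lowest, with specimens 6 and 8 among the MSC treated values, and the log2 fold change was 0.36 (SE 0.41).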

How the data were processed

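RNA-seq of 6 left cochleae was analysed from 1 table that the authors deposited, whose signal is a read count per gene multiplied by a factor for each library. Per the study's methods, reads were trimmed and aligned with a software package to the C57BL/6NJ genome (Ensembl) and the lists of changed genes were made with NOISeq, while the counter and its use of strand are not given in the sources used here. Those deposited lists gave the members' names and direction and are the only source of gene symbols for the table's identifiers, and their fold, FDR and mean FPKM columns, which hold the authors' own comparison, were not used. The members, groups and marker lists were chosen with earlier results of these data known.

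Whole reads were recovered for 100% of values (tolerance 1e-06). The 15970 genes that passed edgeR's filterByExpr were fitted with limma-trend on log2(scaled count + 1) (limma 3.58.1, R 4.3.3), with Benjamini-Hochberg adjustment over all of them. Because recovered reads are not the deposited unit, edgeR 4.0.16, DESeq2 1.42.0 and limma-voom were alternatives, as were other scalings, filters, pseudocounts and leaving out each library. With 3 libraries a group, an exact permutation test of a single gene cannot go below 0.1, and nothing in the sources ties libraries to cages or days. Muscle and immune members were named in full, and of neural and other members the 12 with the highest mean, with members whose groups did not overlap and those said to be added. The values of 1 member are not reported here. Promoters came from RefSeq. Tables and plots used Python 3.11.15, pandas 2.3.3, numpy 2.4.6 and matplotlib 3.10.9.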

Additional observations from a re-analysis of the deposited data

How the results depend on the processing

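The number of members at an unadjusted p under 0.05 in limma was 2, and it was 1 with scaling by total count, 6 with edgeR, 13 with DESeq2 and between 0 and 35 when each library was left out, the highest without sound trauma specimen 10. Over all genes, 107 were lower at that limit, against 61 with scaling by total count, 299 with no filter beyond 1 read, 266 with edgeR, 550 with DESeq2 and 55 to 1147 with 1 library left out. Higher genes numbered 269, against 427 with no filter and 108 to 1397 with 1 library left out. At an adjusted p under 0.05 there were 0 genes in limma, edgeR, DESeq2 and limma-voom, and 0 to 1 with 1 library left out, the 1 without specimen 10. The cause was not tested.

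With 1 library left out, the median log2 fold change lay between -1.21 and 0.35 for the muscle, between -1.29 and -0.22 for the neural and between 0.19 and 0.53 for the immune members. Leaving out Trim32 and reading specimen 10 alone were chosen after seeing the data. No paired analysis was possible because the specimen numbers of the groups (6, 8 and 10 against 13, 18 and 20) share none. Depth was 9170390 to 11030863 reads. Rnf165, at 3 reads in specimen 18, was fitted only with no filter beyond 1 read (log2 fold change -1.24).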
